A study of Mus musculus with 12 samples.

Results

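The response of Stag2 knockdown cells to quiescence was described across all genes in 6 of the 12 RNA sequencing libraries of the series. These 6 were chosen by their labels: the quiescent and the proliferating knockdown library of experiments 5, 7 and 9, paired by experiment number. All 12 libraries came from NU1, a line of normal mouse urothelium (the lining of the urinary tract) that became immortal by serial passage, so 1 line stands for the tissue throughout. The knockdown cells carried a short hairpin against Stag2, labelled sh4, and the control cells a hairpin labelled shNT; each hairpin was present in both states of its own cells. Only 1 hairpin was used, so loss of Stag2 and effects of this hairpin on other genes cannot be told apart. Proliferating cells grew in complete medium with serum, EGF, insulin and hydrocortisone. Quiescent cells were grown to confluence in that medium, then kept in it with rosiglitazone at 1 µM, an agonist of the nuclear receptor PPAR gamma, and erlotinib at 0.5 µM, an inhibitor of the EGF receptor kinase, and were labelled day 7. Confluence, both drugs and time therefore differ together between the states, and their effects cannot be told apart. The labels give each experiment a batch of its own but do not say that experiments were separately grown cultures, so p-values measure the spread between these libraries, which may be technical in part. In such bulk samples fewer cells of a kind and less RNA per cell cannot be told apart.

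Quiescence is a reversible exit from the division cycle. In quiescent cells the DREAM complex, built from the pocket proteins Rbl1 and Rbl2, the E2F factors E2f4 and E2f5 and the MuvB core, sits on promoters of cell-cycle genes and keeps them silent. It reaches early genes (DNA replication) mainly through E2F sites and late genes (mitosis) mainly through the cell cycle homology region, or CHR. Stag2 belongs to cohesin, a ring that ties sister chromatids together and folds chromosomes into loops, and Stag1 is the subunit that can take its place. The bladder epithelium itself is a slowly renewing tissue whose differentiated cells make uroplakins and keratins and form tight barriers.

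Total counts ran from 16088988 to 21987539 in the 6 knockdown libraries, and from 14524429 upward over all 12. Levels below are CPM, read counts scaled by TMM to a common library total, and 3 values in a row are always experiments 5, 7 and 9. A log2 fold change is quiescent minus proliferating, from edgeR's quasi-likelihood fit to all 12 libraries with a term for experiment, given ± its standard error (SE; n = 3 libraries per state) with a Benjamini-Hochberg adjusted p over 12406 tested genes. "Rose" and "fell" are used where that p was under 0.05. Where leaving out 1 library ended a gene's call, that library is named as P or Q, for proliferating or quiescent knockdown cells, or CP or CQ, for the controls, with its experiment number. The hairpin's target checked the labels: Stag2 stood at 33.3, 24.9 and 24.6 CPM in proliferating and 9.43, 15.3 and 11.7 CPM in quiescent knockdown cells, against 139, 145 and 113 and 128, 126 and 107 CPM in the controls. Every knockdown library was below every control library. Within the knockdown cells Stag2 fell further, by 1.20 log2 ± 0.17 (adjusted p = 0.000576), so the 2 states differ in Stag2 level as well as in growth. In the control cells the change was -0.13 log2.

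Markers of other cell types that such a culture could hold were low apart from single genes, which are named here after their values were seen. Summed over 10 fibroblast markers the level was 0.894 to 2.56 CPM in proliferating and 0.589 to 1.93 CPM in quiescent knockdown libraries, and Col1a2, Col3a1, Dcn and Lum had no count. Summed over 8 endothelial markers it was 7.34 to 18.8 CPM in proliferating and 9.84 to 22.4 CPM in quiescent libraries, mostly Egfl7, with no count of Emcn or Cldn5. Over 8 smooth muscle markers it was 196 to 317 and 302 to 380 CPM, nearly all of it Smtn, which did not pass (adjusted p = 0.0517). Cd3e, a marker of T cells, had no count. The summed level of 9 immune markers went from 91.9 to 97.6 CPM up to 172 to 295 CPM, carried by Cd14 and Csf1r, and the call of Cd14 was lost without the term for experiment (adjusted p = 0.105) or with 1 library left out (P9, P5, Q9 or Q5; adjusted p up to 0.0867). The part of the immune and smooth muscle markers in the results below was not tested. Epithelial identity was plain from Krt8, Krt18, Krt19, Krt7 and Epcam in all 6 libraries, the lowest value being that of Epcam in quiescent experiment 9 (466, 509.9 and 391 CPM in the 3). Of the defining urothelial genes, Upk3a and Krt13 each had 1 count in all 6 libraries together, Trp63 had 0 counts, and Upk1a and Upk2 stayed under 4 CPM. Krt15 and Krt17 stayed under 1 CPM, and Krt5 and Pparg were scarce. The label urothelial therefore has the support of some genes, such as Krt20, Gata3 and Elf3, and not of these others or of uroplakins.

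Quiescence changed 4096 of 12406 tested genes in the knockdown cells, 33.0% of those tested. Of these, 1967 rose (15.9% of tested genes) and 2129 fell (17.2%). Falls were larger: 853 genes fell by at least 1 log2 and 152 by at least 3, against 621 and 68 among those that rose. The median size was 0.74 log2 for genes that rose and 0.80 for genes that fell. Of the genes that rose, 1941 went up in each of the 3 experiments (98.7%; 55.5% of all tested genes had 1 direction in the 3), and 1617 (82.2%) had all 3 quiescent libraries above all 3 proliferating ones. The same held for 2099 and 1856 (87.2%) of those that fell. Over all tested genes the states did not overlap in 37.2%. The median over all tested genes was 0.01 log2. Without the term for experiment, 2279 genes passed (941 higher, 1338 lower), each of them also past the threshold with it. The count was 2570 without the quiescent and 2579 without the proliferating knockdown library of experiment 9, and lay between 2891 and 4421 without any other library. In experiment 9, 1071 genes were over 1 log2 higher and 1182 lower, against 804 and 1181 in experiment 5 and 970 and 939 in experiment 7.

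Gene lists for the cell cycle, the urothelium, the drugs' pathways and the basic economy of the cell gave the outline of the response. Every count of list members below is to be read beside the shares over all tested genes, 15.9% higher and 17.2% lower. In the plot of list medians, the cell-cycle lists lie far below 0 in all 3 experiments. Sterol synthesis, MAPK output and ribosome biogenesis lie below 0 by less, and lysosome, MHC class I, FoxO, clock and histone genes lie above 0.

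**Figure D1:**
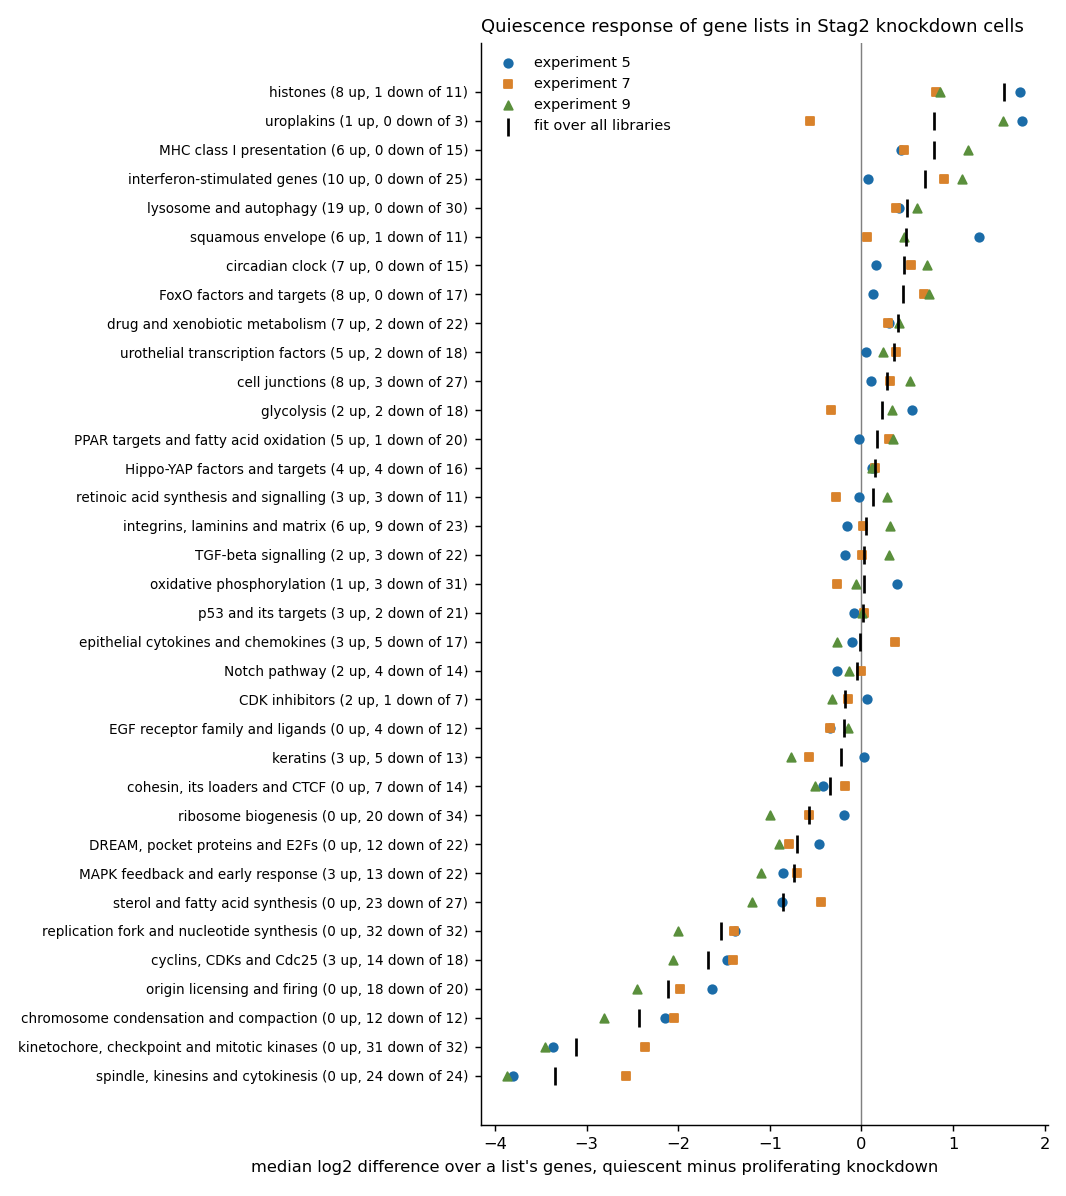
Median log2 difference (horizontal axis, quiescent minus proliferating knockdown libraries) over the tested genes of each list (rows), within experiment 5 (circles), 7 (squares) and 9 (triangles) and from the fit over all libraries (bars), with the number of genes past the threshold in each direction beside the name. In the fit over all libraries spindle genes have the lowest median, -3.35, and histone genes the highest, 1.56. Histone medians within the experiments are 1.73, 0.82 and 0.85, and another list is higher in each. Experiment 7 gives the smallest falls for the mitotic lists.

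Genes that prepare and copy DNA fell. Of 20 origin licensing and firing genes 18 fell (median -2.12 log2), and of 32 replication fork and nucleotide synthesis genes 32 fell (median -1.53), with none higher in either list. Mcm5, a subunit of the helicase that unwinds DNA at origins, went from 90.6, 130.3 and 115 CPM to 12.7, 19.3 and 11.7 CPM. All 3 quiescent libraries were far below the proliferating ones, and the fit gave -2.95 ± 0.15 log2 (adjusted p = 7.95e-06). Cdc6, which loads that helicase, went from 43.8, 45.2 and 48.3 to 4.44, 7.10 and 3.69 CPM (-3.19 ± 0.18 log2, adjusted p = 7.95e-06). Its proliferating libraries hardly differed from each other, and the fall was more than 6-fold in each experiment. Cdt1, the other loading factor, fell by 3.08 log2, Mcm10 by 3.16 and Mcm2 by 1.65.

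At the fork, Rrm2, a subunit of the enzyme that makes deoxyribonucleotides, went from 106, 192 and 207 to 15.2, 28.8 and 18.6 CPM (-3.03 ± 0.20 log2, adjusted p = 1.20e-05). Thymidine kinase Tk1 fell by 3.35 log2 and Uhrf1, which carries DNA methylation through replication, by 3.20. Pcna, the sliding clamp, went only from 132, 175 and 182 to 53.1, 63.8 and 51.2 CPM (-1.53 ± 0.11 log2). Thymidylate synthase Tyms behaved like Pcna, with a fall of 1.47 log2. The states did not overlap for any of the 5 fork genes named, but Pcna kept about 50 to 65 CPM in quiescent cells where Tk1 kept less than 10.

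Genes of mitosis fell the most. Of 32 kinetochore, checkpoint and mitotic kinase genes 31 fell (median -3.12 log2), of 24 spindle, kinesin and cytokinesis genes 24 (median -3.35), and of 12 condensation genes 12 (median -2.43). The only member of the 5 lists above 0 was Pttg1, securin, named here after its values were seen, at 18.8, 19.2 and 22.3 and 26.3, 21.5 and 23.4 CPM (adjusted p = 0.173). Plk1, the kinase that drives entry into mitosis, went from 21.7, 47.4 and 77.8 to 0.725, 6.38 and 3.63 CPM (-3.86 ± 0.38 log2, adjusted p = 6.35e-05). Quiescent experiment 5 was under 1 CPM while quiescent experiment 7 kept over 6. The kinesin motor Kif11 showed the same order, from 36.0, 60.9 and 91.8 to 1.31, 10.1 and 4.51 CPM (-3.68 ± 0.46 log2, adjusted p = 0.000241). Top2a, the topoisomerase that untangles chromosomes, went from 199.7, 314 and 445 to 7.21, 41.2 and 23.8 CPM (-3.88 ± 0.47 log2, adjusted p = 0.000202). Mki67, the proliferation marker that coats mitotic chromosomes, went from 110.4, 192 and 264 to 5.49, 33.6 and 17.6 CPM (-3.48 ± 0.49 log2, adjusted p = 0.0005).

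These mitotic genes did not reach the same floor in each experiment. For Plk1, Kif11, Top2a and Mki67 alike, the lowest quiescent library was that of experiment 5 and the highest that of experiment 7, while the proliferating libraries were lowest in experiment 5 and highest in experiment 9. A highest quiescent value in experiment 7 was not particular to mitotic genes, since Stag2, Mcm5, Cdc6, Rrm2, Pcna and Ccnd1 had it too. The median over the spindle list was -3.80 log2 in experiment 5, -2.57 in experiment 7 and -3.87 in experiment 9. Aurora kinases Aurka and Aurkb fell by 3.31 and 3.36 log2, and the checkpoint kinase Bub1 by 3.70. Cdc20, which switches on the anaphase ligase, fell by 3.65, the centromere motor Cenpe by 3.50 and the survivin gene Birc5 by 3.93. Among cytokinesis genes Anln fell by 3.37, Kif20a by 3.57 and Kif14 by 4.11 log2. Smc2, the core of condensin, and Lmnb1, a nuclear lamina protein lost in many arrested cells, fell by less, 2.06 and 1.44 log2.

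**Figure D2:**
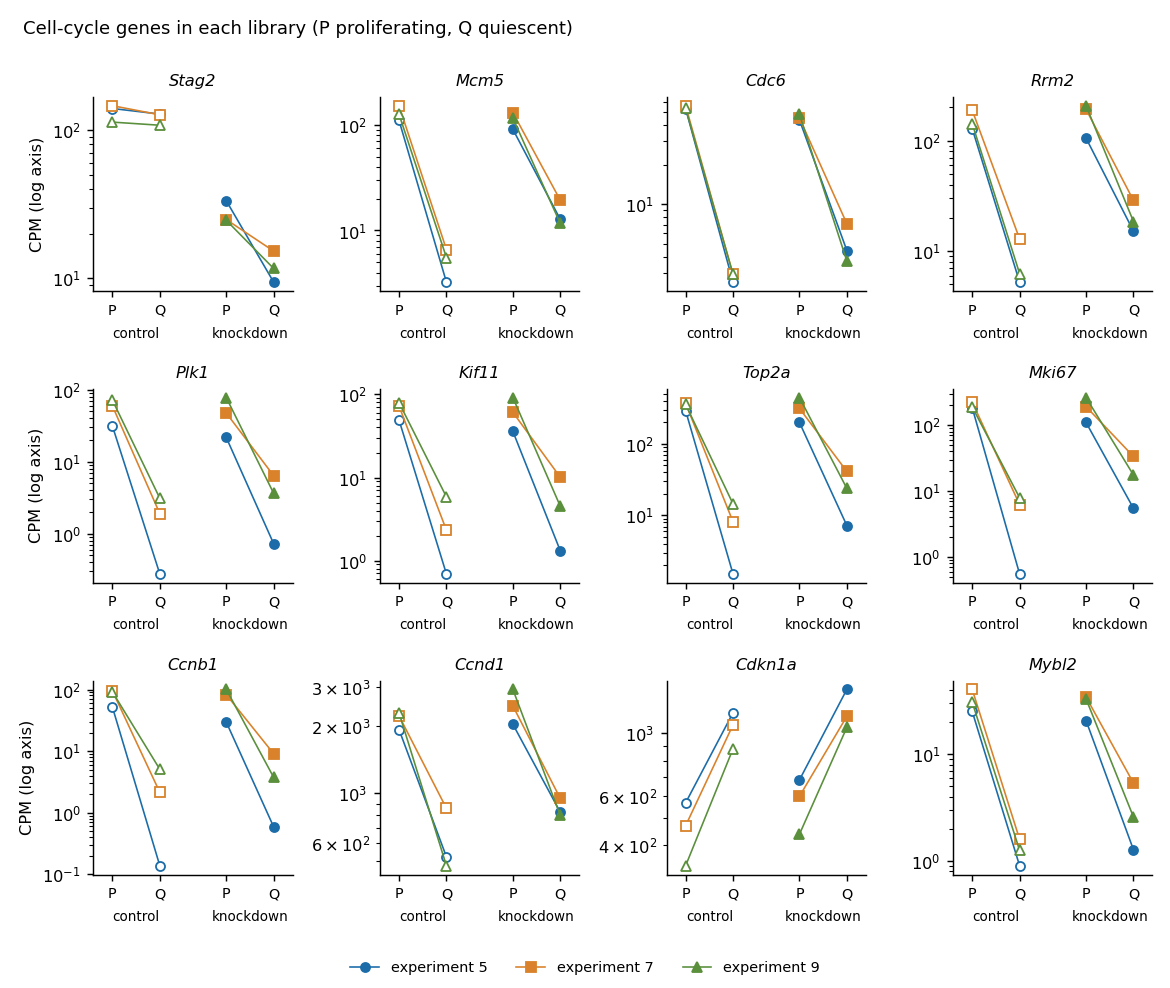
CPM on a log axis for 12 genes in the proliferating (P) and quiescent (Q) libraries of control (open symbols) and knockdown cells (filled), lines joining the 2 states of 1 experiment. Stag2 is lower in all 6 knockdown libraries than in any control. Within knockdown cells Cdkn1a goes up and the other genes go down in each experiment. Each gene that goes down has its highest quiescent knockdown value in experiment 7.

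Most cyclin and CDK genes fell, and the D-type cyclins moved in both directions. Of 18 cyclin, CDK and Cdc25 genes 14 fell and 3 rose (median -1.67 log2). Ccnb1, the mitotic cyclin, had the largest fall of the list, from 29.7, 82.7 and 101 to 0.589, 9.06 and 3.75 CPM (-4.14 ± 0.53 log2, adjusted p = 0.000291). Ccna2 and Ccnb2 fell by 3.91 and 3.90 log2, and Cdk1, their partner kinase, by 3.21. Ccnd1, the cyclin that growth factors induce, went from 2039, 2462 and 2919 to 823, 949 and 797 CPM (-1.53 ± 0.19 log2, adjusted p = 0.000247) and so remained abundant. The 3 that rose were Ccnd2, from 399, 409 and 358 to 701, 1064 and 702 CPM (1.06 ± 0.21 log2), Ccnd3 (0.66 ± 0.17 log2) and Wee1, the kinase that inhibits Cdk1 (1.42 ± 0.10 log2, adjusted p = 1.73e-05). Ccnd3 hardly differed between the states in experiment 7, at 107 and 108 CPM, and missed the threshold without the term for experiment (adjusted p = 0.0866). The call of Ccnd3 (P9, P5 or Q9; adjusted p up to 0.071) was lost with 1 library left out.

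Among 7 CDK inhibitors, 2 rose and 1 fell. Cdkn1a, or p21, went from 682, 596 and 437 to 1436, 1151 and 1051 CPM (1.10 ± 0.11 log2, adjusted p = 8.69e-05), and it was abundant already in proliferating cells. Cdkn1c, or p57, went from 6.76, 6.43 and 4.65 to 18.8, 7.04 and 14.0 CPM (1.10 ± 0.25 log2), with little change in experiment 7. Without the proliferating knockdown library of experiment 9 only 1 of the 7 rose. Cdkn1b, or p27, the inhibitor most often tied to quiescence, stood at 48.9, 61.6 and 64.6 and 51.0, 45.3 and 59.9 CPM (adjusted p = 0.367); its states overlapped. Cdkn2a and Cdkn2b did not pass either (adjusted p = 0.185 and 0.408). Cdkn2c fell by 2.78 log2. The call of Cdkn1c (P9; adjusted p = 0.0547) was lost with 1 library left out.

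The DREAM, pocket protein and E2F list held 22 tested genes, of which 12 fell and 0 rose (median -0.70 log2). Activators and cell-cycle regulated members moved most. Mybl2, which replaces the repressor subunits on late promoters, went from 20.7, 34.5 and 33.1 to 1.27, 5.37 and 2.58 CPM (-3.37 ± 0.25 log2, adjusted p = 1.73e-05). Foxm1, the mitotic transcription factor, fell by 2.80 log2, E2f2 by 3.50, E2f7 by 3.36 and E2f1 by 1.28. Of the repressor side, E2f4 went from 104, 144 and 107 to 81.8, 82.5 and 75.8 CPM (-0.55 ± 0.13 log2, adjusted p = 0.00853) and Rbl1 (p107) fell by 1.75 log2. Rbl2 (p130), the pocket protein of resting cells, stood at 57.3, 35.0 and 30.2 and 44.4, 50.2 and 40.1 CPM, and Rb1 at 53.3, 43.8 and 45.7 and 50.5, 44.4 and 58.2 CPM. Both overlapped between the states and did not pass (adjusted p = 0.421 and 0.588).

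Promoter sequence was set beside these falls because the lists differ in the motif their promoters carry. Each window ran from 250 bases before to 50 bases after a gene's start, from RefSeq on build GRCm38.p6, the build the authors' mm10 corresponds to. Of the tested genes, 7043 had exactly 1 window and were searched on both strands for the CHR (TTTGAA) and for E2F sites (TTCCCGC or TTGGCGC). Neither motif contains the other, and a window with both counts in both shares. Shown first are stretches of 30 bases around the CHR in promoters of mitotic genes whose values stand above, 5′ to 3′ on the gene's strand, with the match in capitals (TTCAAA is the CHR read from the other strand).
Plk1: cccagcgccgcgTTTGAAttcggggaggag
Cdc20: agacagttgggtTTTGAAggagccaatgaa
Kif11: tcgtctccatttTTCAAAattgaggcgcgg
Top2a: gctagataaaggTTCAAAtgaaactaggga
Cdk1: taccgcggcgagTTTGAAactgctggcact
The next are E2F matches in promoters of licensing genes described above (GCGCCAA and GCGGGAA are the E2F letters read from the other strand).
Mcm5: ccaagaactttcGCGCCAAaacgtccagcc
Cdc6: ggccggtggagaGCGGGAAatcgcctgggg
Cdt1: tgcgcggaatccGCGGGAActacctttttg
The Plk1 stretch lies at chr7:122159453-122159482 on the plus strand and its match begins 31 bases after the start. The Cdc20 stretch lies at chr4:118437344-118437373 on the minus strand, with its match 18 bases before the start. Kif11 has its match 19 bases before the start at chr19:37376351-37376380 (plus strand). Top2a has one 23 bases before the start at chr11:99024195-99024224 and Cdk1 one 15 bases before the start at chr10:69352910-69352939, both on the minus strand and each 1 of 2 matches in its window. The E2F stretches are all on the plus strand: Mcm5 at chr8:75109348-75109377 with 1 of its 2 matches 149 bases before the start, Cdc6 at chr11:98908001-98908030 with its match 138 bases before the start, and Cdt1 at chr8:122568021-122568050 with 1 of its 2 matches 19 bases after the start. Plk1, Cdc20, Kif11 and Top2a had no E2F match, Mcm5, Cdc6 and Cdt1 no CHR match, and Cdk1 held both.

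CHR matches were most frequent where the falls were largest. A match was present in 11.4% of the 7043 windows, in 15.9% of those of genes that fell, in 8.63% of those that rose and in 10.8% of those not past the threshold. Among genes that fell by at least 3 log2 it was in 43 of 94 windows (45.7%), against 21.0% at 2 to 3 log2, 15.9% at 1 to 2 and 11.4% under 1. By list, the CHR was in 17 of 19 spindle windows, 7 of 9 condensation windows and 13 of 23 kinetochore windows, but in 1 of 22 fork windows. E2F matches were placed differently: 13 of 22 fork windows and 6 of 12 licensing windows, against 3 of 23 kinetochore and 2 of 19 spindle windows, with 13.4% over all windows. The lists were not cleanly divided, since 5 of 9 condensation windows also held an E2F match and 4 of 12 licensing windows a CHR. By size of the fall the E2F share was 18.8% under 1 log2, 25.1% at 1 to 2, 24.4% at 2 to 3 and 18.1% at 3 log2 or more. These are shares of letters found in a window and say nothing of binding. Bub1 and Cenpe fell by over 3 log2 with neither a CHR nor an E2F match in their windows. The fork genes Pcna, Rrm2, Tyms and Tk1 had neither match as well, although Rrm2 and Tk1 fell by over 3 log2. Ccnb1, a mitotic cyclin, had an E2F and no CHR match, and Mcm2, a licensing gene, a CHR and no E2F match.

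**Figure D3:**
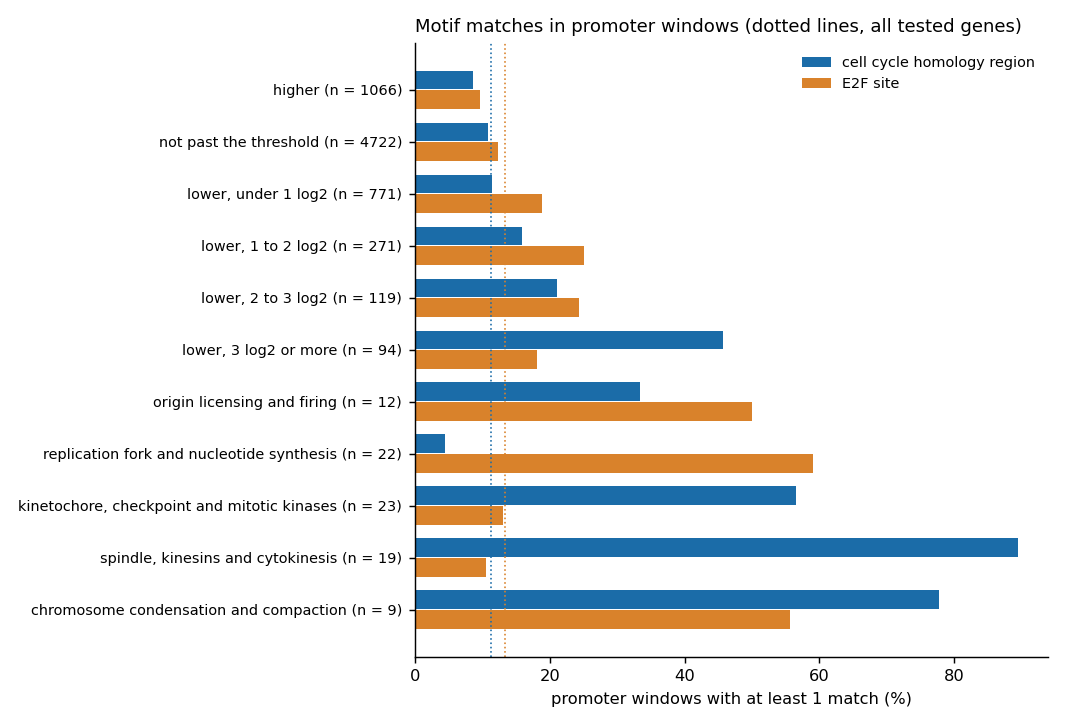
Percent of promoter windows with at least 1 CHR or E2F match (horizontal axis) by result in the knockdown cells and by list (rows, n windows), with dotted lines at the share over all 7043 windows. The CHR share goes from 8.63% in genes that rose to 45.7% in genes lower by 3 log2 or more, and E2F leads in fork genes.

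Cell-cycle genes had larger fitted falls in the control cells, although no single difference passed in edgeR with all 12 libraries and the filter on low counts. In the controls 4374 genes passed (35.3%), 2083 higher (16.8%) and 2291 lower (18.5%). Genes that rose in both numbered 1444, which is 73.4% of those that rose in knockdown and 69.3% of those that rose in control cells. Genes that fell in both numbered 1658 (77.9% and 72.4%), and 0 were past the threshold in opposite directions. The difference between the 2 responses, the interaction in the same fit, passed for 0 genes (0% called; 590 at an unadjusted p under 0.05, and 219 without the term for experiment). DESeq2 called 29 (568 at an unadjusted p under 0.05), and edgeR 1 (Mcm5) both with no filter on low counts and without the quiescent knockdown library of experiment 9. Over the 120 genes of the 5 cell-cycle lists the median response was -2.50 log2 in knockdown and -3.05 in control cells, and the knockdown fall was the smaller one in 117. By experiment the medians were -2.21, -2.12 and -2.97 log2 in knockdown and -2.96, -3.13 and -3.10 in control cells, so they were close in experiment 9. In that experiment the spindle and condensation lists fell more in knockdown cells (-3.87 against -3.56, and -2.81 against -2.75 log2). The other cell-cycle lists fell less there. Over all tested genes the difference was positive in 6553 of 12406. As a description, 45 of the 120 had an unadjusted p under 0.05. Summed over the 120, proliferating levels were 5060, 7422 and 9156 CPM in knockdown and 6415, 8398 and 8691 CPM in control cells. Quiescent sums were 1571, 2215 and 1666 beside 1399, 1608 and 1652 CPM. For the kinetochore list they were 164, 263 and 190 beside 165, 185 and 222 CPM, and for the spindle list 153, 335 and 222 beside 158, 192 and 250 CPM. The part of the proliferating level in the smaller falls was not tested.

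Mcm5 had the smallest adjusted p of the difference, 0.0786: quiescent levels were 12.7, 19.3 and 11.7 CPM in knockdown and 3.24, 6.61 and 5.55 CPM in control cells, and the 2 sets did not overlap. Ccne2, the cyclin of S phase entry, fell by 2.15 log2 in knockdown cells, with 2.22, 2.80 and 2.29 CPM left, and the control response was -4.78 log2. Clspn, a replication checkpoint adaptor, and Pbk, a mitotic kinase, fell by 2.98 and 3.12 log2, with control responses of -5.48 and -5.55. For Mki67, quiescent levels of 5.49, 33.6 and 17.6 CPM in knockdown stood beside 0.552, 6.24 and 7.93 CPM in control cells, but the 2 sets overlap, since knockdown experiment 5 was below control experiments 7 and 9. Outside the cell cycle, Aldh1a1 and Il24 had smaller responses than in controls (1.84 against 3.70 log2, and -1.94 against -4.15). With all 12 libraries and the filter on low counts none of these differences passed in edgeR. In DESeq2 those of Mcm5, Ccne2, Clspn, Pbk, Aldh1a1 and Il24 passed, and that of Mki67 did not.

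**Figure D4:**
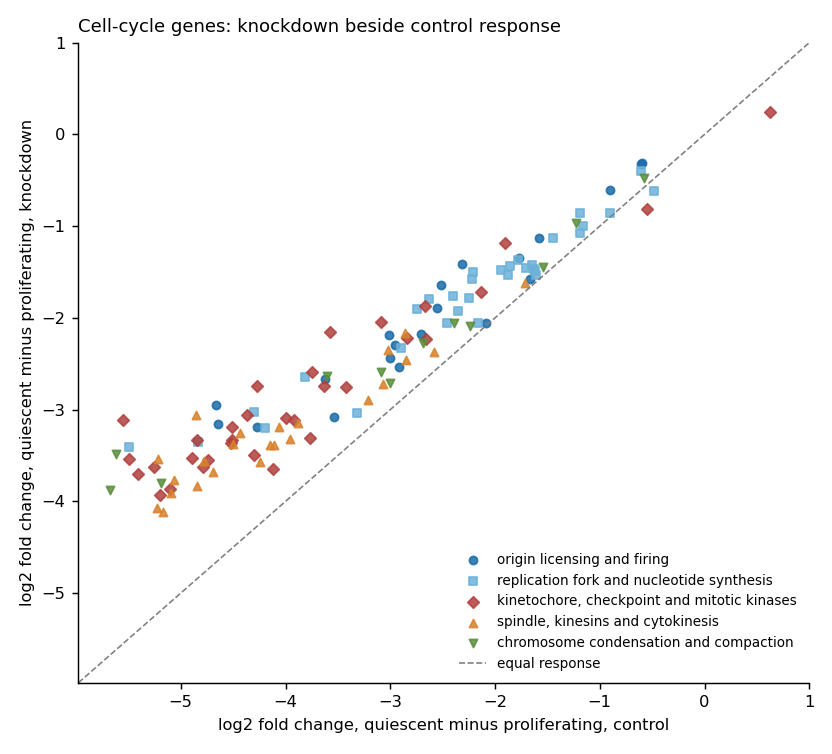
Fitted log2 fold change in knockdown cells (vertical) against control cells (horizontal) for the 120 genes of the 5 cell-cycle lists, with a dashed line where both are equal. Of the 120 points 117 lie above the line, that is, with a smaller fall or a higher value in the knockdown cells.

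Other cohesin subunits fell as well, by less than Stag2. Of 14 tested genes of the cohesin list 7 fell and 0 rose (median -0.35 log2). In the control cells 6 of the 14 fell and 0 rose (median -0.23 log2). Rad21, the kleisin that closes the ring, went from 253, 289.9 and 333 to 178, 193 and 169.7 CPM (-0.69 ± 0.12 log2, adjusted p = 0.00189), and the states did not overlap. The hinge subunits Smc1a and Smc3 fell by 0.58 and 0.45 log2. Stag1 went from 79.3, 85.8 and 79.4 to 66.7, 71.1 and 59.5 CPM (-0.32 ± 0.10 log2, adjusted p = 0.0332), a fall lost without the term for experiment (adjusted p = 0.144). Esco2, the acetyltransferase that locks cohesin in S phase, had the largest fall, 2.55 log2. Ctcf, which stops cohesin at loop anchors, did not pass (adjusted p = 0.158). The call of Stag1 (CP7, CQ7, P7, P9, Q7, Q9 or Q5; adjusted p up to 0.171) was lost with 1 library left out.

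Among all genes with a mean of at least 2 log2 CPM, the largest rises were of varied kinds. Spink8, a secreted serine protease inhibitor, went from 63.6, 44.7 and 79.8 to 1347, 388 and 1090 CPM (3.75 ± 0.35 log2, adjusted p = 4.66e-05). Experiment 7 rose least, but every quiescent library was above every proliferating one. Tgfb2, a growth-inhibitory cytokine of the TGF-beta family, went from 2.45, 3.46 and 1.61 to 28.0, 29.2 and 33.0 CPM (3.64 ± 0.24 log2, adjusted p = 1.20e-05), with nearly equal levels in the 3 quiescent libraries. Atp1b1, the beta subunit of the sodium pump, went from 8.22, 15.1 and 34.5 to 224, 99.1 and 310.4 CPM (3.51 ± 0.39 log2). Genes of transport, adhesion and membranes among the 12 largest rises included, with log2 fold changes, the potassium channel Kcnj16 (3.08), dysferlin Dysf (3.10) and calsyntenin Clstn2 (3.27). Also among them were D0H4S114 (3.89), the NLR family gene Nlrp10 (3.75), the RNA-binding protein Bicc1 (3.62), the chromatin remodeller Chd5 (3.05) and the adhesion receptor Ceacam1 (3.03). Ceacam1 missed the threshold without the term for experiment (adjusted p = 0.119).

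Of the 12 largest falls, all but Prkg2 and Gja1 were cell-cycle genes. Prkg2, a cyclic GMP-dependent kinase, went from 118, 206 and 220.3 to 5.94, 19.6 and 4.51 CPM (-4.32 ± 0.41 log2, adjusted p = 4.92e-05), the largest fall in this set. Gja1, connexin of gap junctions, went from 184, 161 and 193 to 7.53, 25.0 and 5.27 CPM (-4.03 ± 0.42 log2, adjusted p = 9.73e-05). Both kept most in experiment 7. The others included Kif15, Aspm, Fam64a and Cep55, genes of the spindle and of abscission, at -4.08 to -3.83 log2.

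The most abundant genes that rose were Krt8, Krt18, Krt19, Clu, Ctsd and Ly6e, the last a membrane protein that did not pass without the term for experiment (adjusted p = 0.133). Clu, clusterin, a secreted chaperone, went from 1994, 2135 and 1987 to 9177, 5316 and 9551 CPM (1.94 ± 0.27 log2, adjusted p = 0.000496). The most abundant genes that fell were Ccnd1 and genes of protein synthesis and folding. Rplp0, a ribosomal stalk protein, went from 2302, 3008 and 2210 to 1322, 1314 and 1079 CPM (-1.0005 ± 0.19 log2), and Tpt1, Hspa8, Hsp90ab1 and Gnb2l1 fell by 0.54 to 0.66 log2. The calls of Hspa8, Hsp90ab1 and Gnb2l1 were lost without the term for experiment (adjusted p = 0.0718, 0.0921 and 0.0551). The calls of Gnb2l1 (P7, P5, Q7 or Q9; adjusted p up to 0.104), Hsp90ab1 (P7, P5 or Q7; adjusted p up to 0.0636), Hspa8 (P7, P5 or Q7; adjusted p up to 0.0968), Tpt1 (P7, P5, Q7 or Q9; adjusted p up to 0.103) and Ly6e (P9, P5 or Q9; adjusted p up to 0.119) were lost with 1 library left out.

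Markers of urothelial differentiation moved apart. Of 18 urothelial transcription factor genes 5 rose and 2 fell, beside 15.9% and 17.2% of all tested genes (median 0.36 log2). Without the term for experiment 2 rose, and 2 or 3 rose when any 1 knockdown library other than the quiescent one of experiment 5 was left out. Elf3, an epithelial factor induced in differentiating urothelium, went from 195, 126 and 139 to 518, 266 and 401 CPM (1.34 ± 0.24 log2, adjusted p = 0.0022), with no overlap. Grhl1 rose by 0.84 log2. Gata3 and Foxa1, factors of luminal urothelium, rose by 0.88 and 0.74 log2, but both calls were lost without the term for experiment (adjusted p = 0.107 and 0.317), and Gata3 went from 33.4, 31.3 and 39.0 to 82.5, 30.5 and 93.3 CPM, with no rise in experiment 7. Bnc1, a factor of basal keratinocytes, fell by 2.44 log2 and Foxa2 by 0.98. Pparg, the target of rosiglitazone, was scarce at 3.50, 1.79 and 3.44 and 2.403, 1.79 and 2.29 CPM and did not pass (adjusted p = 0.303). Among uroplakins, the plaque proteins of umbrella cells, Upk3b rose from 0.466, 2.74 and 2.01 to 3.76, 3.34 and 8.91 CPM (1.79 ± 0.53 log2), which was lost without the term for experiment (adjusted p = 0.164). The calls of Foxa1 (P7, P9, P5, Q7 or Q9; adjusted p up to 0.154), Gata3 (CQ5, P9, P5, Q9 or Q5; adjusted p up to 0.171) and Upk3b (P9, P5, Q9 or Q5; adjusted p up to 0.107) were lost with 1 library left out.

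Keratins also split, with 3 of 13 tested genes higher and 5 lower, beside 15.9% and 17.2% of all tested genes (median -0.22 log2). Simple epithelial keratins rose: Krt19 went from 1897, 1477 and 1316 to 3922, 2691 and 2835 CPM (1.01 ± 0.14 log2, adjusted p = 0.00047), and Krt8 from 5828, 4496 and 5751 to 8910, 8775 and 9042 CPM (0.76 ± 0.19 log2). Krt18, the partner of Krt8, rose by 0.61 log2. Neither Krt8 nor Krt18 passed without the term for experiment (adjusted p = 0.0598 and 0.117), and leaving out the proliferating knockdown library of experiment 5 left 1 keratin higher. Krt20, the keratin of umbrella cells, went the other way, from 1239, 1635 and 1738 to 715, 875 and 798 CPM (-0.95 ± 0.15 log2, adjusted p = 0.00112), without overlap. Basal keratins were scarce and fell, Krt5 from 2.91, 4.35 and 6.60 to 0.952, 1.55 and 2.58 CPM (-1.46 ± 0.27 log2) and Krt14 by 2.91 log2. Krt4 fell by 3.67 log2, and Krt7 stood at 2160, 2951 and 1627 and 2199, 1695 and 1723 CPM without passing. The calls of Krt8 (P5; adjusted p = 0.0525) and Krt18 (CP7, CQ5, P7, P9, P5, Q7 or Q9; adjusted p up to 0.173) were lost with 1 library left out.

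The squamous envelope list, proteins that cross-link into the horny layer of skin, had 6 of 11 genes higher and 1 lower (median 0.49 log2). Sprr2g went from 36.2, 20.9 and 71.6 to 418, 41.1 and 332 CPM (2.29 ± 0.51 log2) and Sprr1a from 17.8, 12.2 and 12.6 to 164, 12.3 and 62.6 CPM (1.83 ± 0.60 log2). In both, experiments 5 and 9 carried the rise, and Sprr1a did not change in experiment 7. Sprr2 genes are near-identical copies whose reads may be split between them. No gene of this list passed without the term for experiment (adjusted p = 0.0554 for Sprr2g and 0.126 for Sprr1a), and 2 were higher without the quiescent, and 2 without the proliferating, knockdown library of experiment 9. Without the proliferating one of experiment 5, 3 were higher. Ivl and Tgm1 did not pass. The call of Sprr1a (CP7, CQ9, P9, P5, Q9 or Q5; adjusted p up to 0.168) was lost with 1 library left out.

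Of 27 junction genes 8 rose and 3 fell, beside 15.9% and 17.2% of all tested genes (median 0.28 log2). In the control cells 11 were higher and 1 lower (median 0.41 log2). Cldn4, a claudin that tightens epithelial barriers, went from 1021, 740.0 and 1128 to 2205, 2272 and 3080 CPM (1.40 ± 0.18 log2, adjusted p = 0.000271), more than 2-fold up in each experiment. The desmosomal plaque protein Dsp rose by 0.63 log2. Pkp1, another plaque protein, fell from 253, 160.5 and 131 to 45.9, 87.9 and 50.7 CPM (-1.55 ± 0.27 log2, adjusted p = 0.00165). Ctnna1, alpha-catenin, went from 901, 751 and 504 to 439, 493 and 399 CPM (-0.66 ± 0.15 log2, adjusted p = 0.00732) and in the control cells by 0.06 log2 (unadjusted p of the difference 0.00619, adjusted p = 0.808). E-cadherin Cdh1 and the tight junction genes Tjp1 and Ocln did not pass. The number higher was 4 without the term for experiment, 3 without the quiescent library of experiment 9, and 4, 5 and 5 without the proliferating knockdown libraries of experiments 9, 7 and 5. The call of Dsp (P7 or Q9; adjusted p up to 0.0664) was lost with 1 library left out.

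Genes that attach cells to the basement membrane moved in both directions. Of 23 integrin, laminin and matrix genes 6 rose and 9 fell (median 0.05 log2). Itgb4 and Itga6, the integrin of hemidesmosomes, fell by 0.92 and 0.83 log2. The collagen receptor Itga2 went from 98.4, 71.1 and 143 to 14.3, 29.9 and 42.8 CPM (-1.82 ± 0.36 log2, adjusted p = 0.00379). Timp1, an inhibitor of matrix proteases, fell by 2.87 log2, while Timp3 rose by 3.18 log2 at very unequal levels (0.408, 0.774 and 5.39 to 2.901, 4.17 and 67.7 CPM; adjusted p = 0.181 without the term for experiment). Col4a2, a basement membrane collagen, rose from 159, 295 and 258 to 617, 691 and 817 CPM (1.62 ± 0.17 log2, adjusted p = 0.000101). Col17a1, the hemidesmosomal collagen, rose by 2.05 log2 from under 2 CPM to at most 4 CPM, a call lost without the term for experiment (adjusted p = 0.0532). Mmp9, a gelatinase, had 29, 25 and 17 counts in proliferating libraries and 0 in the 3 quiescent ones, at least 24.95-fold lower with a floor of 3 counts over the group. The call of Itgb4 (P9 or P5; adjusted p up to 0.0641) was lost with 1 library left out.

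Most genes that report on MAPK signalling, which the EGF receptor feeds, fell. Of 22 MAPK feedback and early response genes 13 fell and 3 rose (median -0.73 log2), with 9 falls and 2 rises without the term for experiment. Etv4, an ETS factor downstream of ERK, went from 51.9, 77.2 and 78.8 to 5.08, 12.6 and 2.17 CPM (-3.53 ± 0.40 log2, adjusted p = 0.000139). Fosl1, an AP-1 subunit, fell by 3.46 log2, Etv5 by 2.46 and the ERK phosphatase Dusp6 from 101, 207 and 132 to 19.8, 51.1 and 16.1 CPM (-2.43 ± 0.24 log2, adjusted p = 5.82e-05). The quiescent library of experiment 7 was the highest for Etv4, Fosl1, Etv5 and Dusp6. Dusp5 and Spry4, further feedback genes, fell by 2.26 and 1.96 log2. Myc fell by 0.78 log2, a call lost without the term for experiment (adjusted p = 0.152), and Egr1 did not pass (adjusted p = 0.186). Jun, against this direction, rose by 1.42 log2 and Spry1 by 0.70. The call of Myc (P7, P9 or Q9; adjusted p up to 0.0944) was lost with 1 library left out.

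Of 12 genes of the EGF receptor family and its ligands 4 fell and 0 rose (median -0.19 log2). Egfr stood at 119, 113 and 119 and 76.0, 134 and 105 CPM and did not pass (adjusted p = 0.478). The ligand Areg, amphiregulin, went from 31.1, 46.9 and 27.4 to 5.94, 9.60 and 4.92 CPM (-2.37 ± 0.28 log2, adjusted p = 0.000182), beside -1.22 log2 in the controls (adjusted p of the difference 0.836). Tgfa, another ligand, fell by 1.05 log2 and Ereg by 0.93, the latter not past the threshold without the term for experiment (adjusted p = 0.0825). The call of Ereg (P7, P9 or Q9; adjusted p up to 0.129) was lost with 1 library left out.

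**Figure D5:**
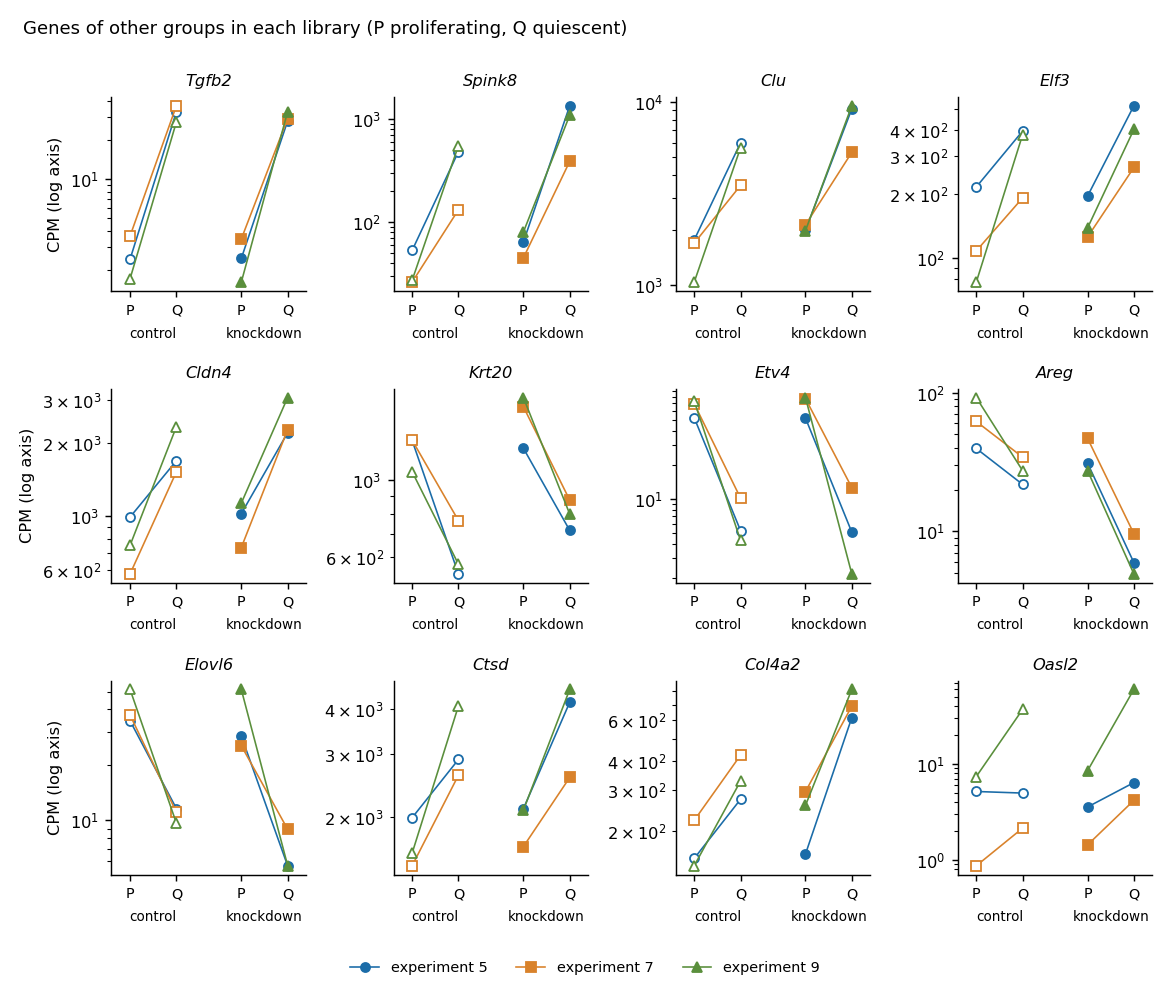
CPM on a log axis for 12 genes of other groups in proliferating (P) and quiescent (Q) libraries of control (open) and knockdown cells (filled), lines joining the states of 1 experiment. Tgfb2, Spink8, Clu, Elf3, Cldn4, Ctsd and Col4a2 go up and Krt20, Etv4, Areg and Elovl6 down in all 3 knockdown experiments, while Oasl2 is highest in experiment 9 in both states of the knockdown cells.

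Of 20 tested PPAR target and fatty acid oxidation genes 5 rose, where 15.9% of all tested genes did, and 1 fell (median 0.17 log2); 2 rose without the term for experiment and 3 without the proliferating knockdown library of experiment 9. Vldlr, a lipoprotein receptor, went from 55.8, 119 and 103 to 195, 156 and 239 CPM (1.16 ± 0.26 log2, adjusted p = 0.00741), and the fatty acid carrier Fabp5 fell by 1.33. Angptl4 and Plin2, typical responders to PPAR agonists, did not pass (adjusted p = 0.0646 and 0.0585), and their directions were opposite. With 1 library left out, Angptl4 ran from 0.99 to 1.56 log2 and Plin2 from -0.62 to -0.31 log2. Fabp4 and Pdk4 had at most 5 counts in any of the 6 libraries.

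Sterol and fatty acid synthesis fell in 23 of 27 genes with 0 higher (median -0.85 log2), and in 16 without the term for experiment. Elovl6, a fatty acid elongase, went from 28.7, 25.4 and 51.4 to 5.67, 8.95 and 5.68 CPM (-2.34 ± 0.28 log2, adjusted p = 0.000178). Idi1, an enzyme of isoprenoid synthesis, fell by 2.14 log2, and Sqle, squalene epoxidase of cholesterol synthesis, by 1.10. The states did not overlap for Elovl6 or Idi1. Fasn, fatty acid synthase, did not pass (adjusted p = 0.0735). Scd1, a desaturase, fell by 1.96 log2, a call lost without the term for experiment (adjusted p = 0.224).

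Retinoid and TGF-beta genes moved singly rather than as groups. Of 11 retinoic acid genes 3 rose and 3 fell. Aldh1a1, a retinaldehyde dehydrogenase, went from 7.29, 6.43 and 4.65 to 26.6, 15.0 and 24.1 CPM (1.84 ± 0.30 log2, adjusted p = 0.00116), and the retinol receptor Stra6 rose by 2.65 log2. Rdh10, which makes retinaldehyde, fell by 1.58 log2. Of 22 TGF-beta genes 2 rose and 3 fell, no more than the shares over all tested genes (15.9% and 17.2%). The number higher was 1 without the term for experiment, without either knockdown library of experiment 9 or without the proliferating one of experiment 5. Tgfb1 and Tgfb3 did not pass beside the rise of Tgfb2, the receptor substrate Smad3 fell by 0.74 log2, and the protease Htra1 by 1.32.

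Interferon-stimulated genes rose in part and unevenly: 10 of 25 rose and 0 fell (median 0.70 log2; 0.07, 0.90 and 1.10 in the 3 experiments). Ifi44 went from 4.14, 1.49 and 9.24 to 11.1, 9.60 and 58.3 CPM (2.25 ± 0.33 log2, adjusted p = 0.000714). Oasl2, of the oligoadenylate synthetase family, went from 3.56, 1.43 and 8.49 to 6.39, 4.17 and 60.1 CPM (1.88 ± 0.48 log2, adjusted p = 0.013). Both genes were high in both states of experiment 9; the states of Oasl2 overlapped, those of Ifi44 only just did not, and no gene of the list passed without the term for experiment (adjusted p = 0.124 and 0.208 for these 2). The number that rose was 2 without the quiescent and 3 without the proliferating knockdown library of experiment 9, 5 and 6 without the proliferating and quiescent ones of experiment 7, and 16 without the quiescent one of experiment 5. Isg15, a ubiquitin-like modifier, did not pass. The call of Oasl2 (P9 or Q9; adjusted p up to 0.0962) was lost with 1 library left out.

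Genes of MHC class I presentation rose in 6 of 15 with 0 lower (median 0.79 log2). H2-D1, a class I heavy chain, went from 267, 267 and 204 to 493, 316 and 468 CPM (0.79 ± 0.19 log2, adjusted p = 0.0109). B2m, the light chain, rose by 0.77 log2 and the loading factor Tapbp by 1.14, both lost without the term for experiment (adjusted p = 0.15 and 0.0854). That fit left 2 genes, and 1 was left without the quiescent, and 1 without the proliferating, knockdown library of experiment 9; DESeq2 called 10. Of 17 cytokine and chemokine genes 3 rose and 5 fell, beside 15.9% and 17.2% of all tested genes. The number that rose was 1 without the term for experiment and 1 without the quiescent knockdown library of experiment 9. It was 1 and 0 without the proliferating knockdown libraries of experiments 5 and 7 (with 3 lower in the latter). Without the proliferating control library of experiment 9 it was 5. Il24, a cytokine of the IL-10 family, went from 25.5, 52.0 and 41.8 to 9.93, 6.62 and 13.01 CPM (-1.94 ± 0.31 log2, adjusted p = 0.00116), and Il23a fell by 1.48 log2. Csf1, the macrophage growth factor, rose by 1.09 log2 (adjusted p = 0.06 without the term for experiment). Its receptor Csf1r rose from 21.4, 38.8 and 47.2 to 108, 104 and 163 CPM (1.85 ± 0.36 log2, adjusted p = 0.00345). The calls of B2m (P9 or Q9; adjusted p up to 0.0713), H2-D1 (P9 or Q9; adjusted p up to 0.0667) and Csf1 (P7; adjusted p = 0.0685) were lost with 1 library left out.

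Lysosome and autophagy genes rose by small steps, 19 of 30 with 0 lower (median 0.50 log2); 10 rose without the term for experiment and 12 without the proliferating knockdown library of experiment 9. Ctsd, an abundant lysosomal protease, went from 2108, 1652 and 2089 to 4187, 2579 and 4550 CPM (0.92 ± 0.17 log2, adjusted p = 0.00254). Experiment 7 rose least in it. The sialidase Neu1 rose by 0.97 log2, the saposin precursor Psap by 0.87 and the autophagosome protein Map1lc3b by 0.84. Tfeb, the transcription factor of lysosomal genes, did not pass (adjusted p = 0.463).

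Of 17 genes of FoxO factors and their targets 8 rose and 0 fell (median 0.45 log2). Insulin and growth factor signalling normally hold FoxO targets down. Gabarapl1, an autophagy gene, went from 36.9, 49.3 and 48.1 to 133, 121 and 163 CPM (1.64 ± 0.13 log2, adjusted p = 2.54e-05). Irs2, an adaptor of the insulin receptor, went from 18.2, 14.2 and 59.3 to 76.2, 90.3 and 176 CPM (2.07 ± 0.28 log2, adjusted p = 0.000421), higher within each experiment, and just missed the threshold without the term for experiment (adjusted p = 0.0513). Pik3ip1, an inhibitor of PI3 kinase, rose by 1.32 log2 (adjusted p = 0.0519 without the term). Txnip, a brake on glucose uptake, stood at 187, 108 and 215 and 21.9, 128 and 19.1 CPM, lower in experiments 5 and 9 and higher in 7, and did not pass (adjusted p = 0.119). The count was 1 without the term for experiment, 4 without the quiescent library of experiment 9, and 4 and 5 without the proliferating knockdown libraries of experiments 9 and 7.

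Ribosome biogenesis fell in 20 of 34 genes with 0 higher (median -0.57 log2). Npm1, nucleophosmin, went from 838, 1482 and 1140 to 594, 548 and 489 CPM (-1.02 ± 0.22 log2, adjusted p = 0.00574), Dkc1, the pseudouridine synthase, fell by 1.39 log2 and the nucleolar methyltransferase Fbl by 0.87. The list's median was -0.19 log2 in experiment 5, -0.57 in 7 and -0.99 in 9. Only 7 genes passed without the term for experiment; 7 passed without the quiescent library of experiment 9, 10 without that of experiment 7, and 8 and 7 without the proliferating knockdown libraries of experiments 9 and 7. Few genes of energy metabolism passed: 1 of 31 oxidative phosphorylation genes rose and 3 fell (median 0.03 log2), and 2 of 18 glycolysis genes rose and 2 fell (median 0.23). Leaving out the quiescent knockdown library of experiment 5 gave 6 and 5 falls in these lists, and that of experiment 7 gave 6 rises in glycolysis. Uqcrc1, a core subunit of complex III, had the largest fall of the former, 1.06 log2, beside -0.39 in controls (adjusted p of the difference 0.808).

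Clock genes rose in 7 of 15 with 0 lower (median 0.46 log2), and in 2 without the term for experiment. Per2 went from 4.95, 5.96 and 3.62 to 13.7, 13.8 and 11.0 CPM (1.44 ± 0.27 log2, adjusted p = 0.0028). The output factor Dbp and the repressor Nr1d1 rose by 1.28 and 0.74 log2 (adjusted p = 0.098 and 0.157 without the term), and Arntl, the core activator, did not pass. The p53 list stayed near 0 (median 0.02 log2), with 3 of 21 higher and 2 lower, beside 15.9% and 17.2% of all tested genes. Without the quiescent knockdown library of experiment 5, 5 were higher and 4 lower. Trp53 itself fell by 0.59 log2 and its negative regulator Mdm2 by 0.57. Pmaip1, a pro-death BH3 protein, rose by 1.44 log2 and the stress cytokine Gdf15 by 0.85 (adjusted p = 0.187 without the term). Of 14 Notch genes 2 rose and 4 fell, beside 15.9% and 17.2% of all tested genes. None, that is 0, were higher without the term for experiment, and 1 was higher without either knockdown library of experiment 7 or of experiment 9. Nrarp, a feedback gene of Notch, went from 61.8, 71.6 and 105 to 5.53, 13.8 and 11.4 CPM (-2.97 ± 0.22 log2, adjusted p = 1.73e-05), and Jag2 and Rbpj fell by 1.33 and 1.00 log2. Of 16 Hippo-YAP genes 4 rose and 4 fell (2 and 2 without the term for experiment or without the proliferating knockdown library of experiment 9, 1 and 2 without the quiescent one, and 1 higher without the proliferating one of experiment 5), with F3, tissue factor, rising by 1.99 log2 and Tead1 falling by 0.88.

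Drug metabolism genes rose in 7 of 22 and fell in 2 (median 0.40 log2), with 3 higher and 0 lower without the term for experiment. The counts were 4 higher and 1 lower without the proliferating, and 4 and 0 without the quiescent, knockdown library of experiment 9, and 1 was lower without either one of experiment 7. Gsta3 and Gstm2, glutathione transferases, rose by 1.55 and 1.28 log2, and the epoxide hydrolase Ephx1 went from 176, 119 and 107 to 236, 252 and 187 CPM (0.77 ± 0.16 log2, adjusted p = 0.0047). Gst genes have close copies, between which reads may be split. Histone genes on polyadenylated RNA gave 8 higher and 1 lower of 11 (median 1.56 log2). The list's median was 1.73, 0.82 and 0.85 log2 in the 3 experiments and ran from 0.24 to 1.76 over the fits. The number higher was 3 without the term for experiment and 5 without the proliferating knockdown library of experiment 5. Hist3h2a went from 17.0, 10.2 and 10.6 to 55.4, 33.2 and 35.3 CPM (1.72 ± 0.14 log2, adjusted p = 2.61e-05). Most replication histone messages lack a poly(A) tail, and only these 11 of the 68 histone symbols in the table had enough counts to be tested; histone genes too are near-identical copies.

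Some genes were nearly silent in 1 state. Alox12e, an epidermal lipoxygenase, had no count in the proliferating and 708 counts in the quiescent knockdown libraries, at least 224-fold more, but 682 of them were in experiment 9 and 3 in experiment 7. It missed the threshold without the term for experiment (adjusted p = 0.12). Slc1a1, a glutamate transporter, went from 1 to 423 counts (ratio 401, 95% exact counting interval 71.6 to 15880), at 2.22, 3.46 and 18.5 CPM in quiescent cells. Clec2e, a lectin-like gene, went from 1 to 309 counts (ratio 293, interval 52.2 to 11610) and was more even, at 4.58, 3.10 and 9.14 CPM. In the other direction Aqp8, a water channel, went from 60 counts to 0, at least 21.1-fold lower, and Kcnk2, a background potassium channel, from 45 to 1 (47.45-fold lower, interval 8.09 to 1915). These intervals and floors cover counting error in counts pooled over the libraries of a state, and not the spread between libraries. They also take reads as independent molecules, which amplified reads are not.

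A few genes moved in opposite directions between experiments, 50 in all among genes with a mean of at least 2 log2 CPM and a mean absolute difference over 1. C3, the central complement component, went from 117, 24.9 and 132 to 12.4, 32.2 and 442 CPM, down in experiment 5 and up in 7 and 9. Psat1, of serine synthesis, went from 84.3, 373 and 386 to 258, 180.1 and 131 CPM, up in experiment 5 and down in 7 and 9, and the cystine carrier Slc7a11 from 7.40, 31.3 and 52.7 to 12.6, 11.6 and 12.4 CPM in the same pattern. Ltbp1, which stores latent TGF-beta, went from 47.0, 16.9 and 18.9 to 6.17, 18.3 and 3.05 CPM, down in experiments 5 and 9 and up in 7. None of these 4 passed (adjusted p = 0.995, 0.715, 0.195 and 0.0707).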

How the data were processed

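The values the authors deposited were unnormalised counts by gene symbol for 12 libraries of poly(A) RNA made with a stranded kit, per the labels' protocols. The submitters' processing notes name Bowtie, TopHat, HTSeq, DESeq2 and mm10, with no roles; use of strand in counting is not given in the sources used here. Of 23337 symbols 5762 had no count, and 0 rows were ERCC spike-ins, which the labels say were added. Reads of near-identical or overlapping genes may be split in an unknown way.

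Genes were kept by filterByExpr (minimum count 10), scaled by TMM and fitted in edgeR 4.0.16 (R 4.3.3) with 4 groups and the experiment number as a block, leaving 6 residual degrees of freedom. P-values from glmQLFTest were adjusted by Benjamini-Hochberg over 12406 genes; CPM for display used TMM-scaled totals and log2 CPM a prior count of 2. The block follows the labels, which give each experiment its own batch. Deviations of knockdown libraries from their group means correlated at a mean r of 0.382 for the same number (0.241 to 0.609, 3 pairs). For different numbers the mean was -0.189 (-0.554 to 0.312, 6 pairs). Such deviations cancel within a group, so the second mean is largely set by the first and is no separate support for the block. No replicate pair agreed within sampling noise. The fit was also run on counts simulated from its own model and dispersions, which cannot show how the tests behave on real libraries.

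Genes are named by a rule: Stag2; the 12 largest changes each way; each list's anchor genes and up to 3 members each way past the threshold; the 6 largest differences from controls, the 6 most abundant called genes, up to 6 nearly silent in 1 state, and up to 6 with mixed signs, each way; a few of these are not reported here. Members and lists were chosen with earlier results of these data known. Alternatives were no block, only the 6 knockdown libraries, median-of-ratios or total-count scaling, no filter, a mean count of at least 50, thinning to the smallest total, DESeq2 1.42.0, and leaving out each library. Counting intervals are exact, at 95%, and floors are 3 counts over a group.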

Additional observations from a re-analysis of the deposited data

How the results depend on the processing

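The number of genes past the threshold for quiescence in knockdown cells (4096; 1967 higher, 2129 lower) fell to 2279 (941 and 1338) with no replicate block and to 2425 (1131 and 1294) with only the 6 knockdown libraries; the latter has fewer samples, and the cause of the former was not tested. Leaving out 1 library gave 2570 to 4421 in all, 1110 to 2112 higher and 1403 to 2345 lower. It stayed within 1.5 times under median-of-ratios scaling (4108), total-count scaling (4121), no filter (3925), a mean count of at least 50 (3678), thinning (4018) and DESeq2 (4399); total-count scaling moved the split to 2267 higher and 1854 lower and the median of all genes to 0.06 log2. The difference from controls had 0 calls, 1 with no filter, 29 in DESeq2 and 0 to 1 with 1 library left out. Of 170 named genes past the threshold, 31 were not past it without the block, as given beside them, 11 (Ccnd3, Ereg, Gata3, Gnb2l1, Hsp90ab1, Hspa8, Krt18, Ly6e, Smc3, Stag1 and Tpt1; adjusted p 0.0517 to 0.149) with only the 6 knockdown libraries and 1 (Stag1, 0.0747) under total-count scaling, 147 kept their call in each fit without 1 library, and 0 changed sign in any fit. Some named genes that did not pass changed sign: C3, main value 0.01 log2, was -0.19 with only the knockdown libraries, -0.00402 with no filter and -0.79 to 0.86 with 1 library left out. With 1 library left out, Psat1 ran from -1.07 to 0.17, Upk2 from -0.0368 to 1.49, Krt7 from -0.34 to 0.000993, Rb1 from -0.0574 to 0.20 and Egfr from -0.35 to 0.0205 log2. Counts of 3 or fewer in a list moved by 1 or 2 in many fits. Genes with few counts, such as uroplakins and PPAR targets near 0, could not be compared at this depth.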
